A study of Mus musculus with 7 samples.

Results

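Dbp, Tef, Hlf, Nr1d1 and Nr1d2 are 5 genes that carry the timing of the circadian clock to other genes, and they are described here in 7 RNA libraries of microglia from the mouse hippocampus. They were chosen by symbol, 5 of the 55401 gene identifiers in the deposited count table, because their library-scaled counts were lower in one group than in the other. That difference is therefore given as a description, without a test. All 5 genes passed the filter on low counts.

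The mice were C57BL/6, 6 to 8 weeks old and male according to the series title. All of them received a virus carrying Cre under the RAM promoter (AAV-RAM-Cre), injected into the dentate gyrus on its dorsal side; this synthetic promoter is switched on in neurons that an experience has activated. The control group received AAV-Dio-EYFP with it, a Cre-dependent fluorescent protein (4 libraries, EYFP 1 to 4, genotype labelled control), and the other group AAV-Dio-Atg7-Flag (3 libraries, ATG7 1 to 3, labelled ATG7 overexpression), which places a tagged copy of the autophagy gene Atg7 in those neurons. The transgenes were thus aimed at neurons, while the RNA came from dissociated hippocampal tissue enriched for microglia with CD11b beads. The labels give no time of collection, so for these clock-driven genes a difference in collection time between the groups cannot be told apart from the treatment. They also do not say whether a library holds 1 mouse or several, and do not say that libraries are separate animals, so the p-values below measure the spread between these libraries.

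The circadian clock is a loop in which the activators BMAL1 (gene Arntl) and CLOCK switch on genes through a DNA element called the E-box, among them the Period and Cryptochrome genes, whose proteins then block the activators. Dbp, Tef and Hlf encode the PAR bZIP transcription factors, which are themselves driven by the clock and activate genes through the D-box element; NFIL3 represses through the same element. Nr1d1 and Nr1d2 encode REV-ERB alpha and REV-ERB beta, nuclear receptors that bind haem and repress Arntl and other genes through an element shared with the activating ROR receptors, and in macrophages and microglia they are known to repress inflammatory genes.

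Promoter sequence is shown for places where an element of this loop, or a cAMP response element, was found next to a start site. RefSeq's GRCm38.p6 table held promoters for 5 of the 5 genes. From 250 bases before to 50 bases after each start, both strands were searched for the E-box CACGTG, the variant E-box CACGTT, the D-box TTATGTAA or TTACGTAA, the REV-ERB element (its core half-site with the A/T-rich flank) and the cAMP response element TGACGTCA; no motif is contained in another. Among all 32851 promoters of this length, the shares with a match were 7.15%, 4.68%, 1.06%, 0.219% and 1.79%. Tef, which has 2 annotated starts, had an E-box before each. Nr1d1 had a variant E-box 28 bases before its start, read on the opposite strand, and Hlf had a cAMP response element 9 bases before its start. Hlf had no match for the other elements searched. No match was found in this window for Dbp or Nr1d2. Outside the 5, matches were listed only for Arntl, Nfil3, Ciart, Per1, Per3, Cry1, Cry2 and Tspan4. The other genes described below, Per2 among them, have no promoter result here. Ciart had 3 E-boxes, Per1 and Tspan4 had 1 E-box each, Cry1 had 1 E-box and 1 variant E-box, and Cry2 had 1 variant E-box. Per3 had 2 D-boxes, Arntl had the REV-ERB element from 28 to 37 bases after its second start, and Nfil3 had no match. The following 30-base stretches show the matches of Tef, Nr1d1 and Hlf, and 1 example each for Ciart, Per3 and Arntl. They are written 5′ to 3′ on the strand of the gene, capitals mark the motif and coordinates are on GRCm38.p6.
Tef, first start, motif at chr15:81802546-81802551, plus strand: gctgtggctcCACGTGctgcagctggcaca
Tef, second start, motif at chr15:81811276-81811281, plus strand: cctggcccagCACGTGtctacatcgtttgg
Nr1d1, motif at chr11:98775400-98775405, minus strand: cacagatctcAACGTGccggctgctggaaa
Hlf, motif at chr11:90390919-90390926, minus strand: gtgcgggcccTGACGTCActcttgtcaggg
Ciart, motif at chr3:95882339-95882344, minus strand: catctagagtCACGTGttgccggtaagcta
Per3, motif at chr4:151044863-151044870, minus strand: gacccgcgcgTTATGTAAggtactcggggg
Arntl, motif at chr7:113207538-113207547, plus strand: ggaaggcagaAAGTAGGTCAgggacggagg
A match is a string of letters and not a measured binding site. The full 250 bases before the start are shown for Nr1d1, whose mean was 70.8% lower in ATG7 (chr11:98775378-98775627, GRCm38.p6, minus strand), with the variant E-box in capitals.
Nr1d1 promoter: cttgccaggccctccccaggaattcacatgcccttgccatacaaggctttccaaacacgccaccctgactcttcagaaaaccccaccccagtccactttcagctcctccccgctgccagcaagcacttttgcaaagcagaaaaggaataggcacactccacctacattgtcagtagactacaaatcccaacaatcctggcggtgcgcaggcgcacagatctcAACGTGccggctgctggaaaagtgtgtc

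Total counts per library ranged from 35934210 to 55217119, and a floor of 3 counts corresponded to 0.0546 to 0.0819 CPM (the usual unit of counts relative to library size, here on library sizes scaled with the TMM factors of edgeR). The 8 microglia markers were present in every library, and their summed level was 20478 to 24861 CPM in EYFP and 20246 to 24817 CPM in ATG7. The 6 choroid plexus markers, led by Ttr, summed to more than that, 54502 to 71887 CPM in EYFP and 46146 to 60807 CPM in ATG7, with 6 of 6 lower in ATG7. Neuron markers summed to 8.62 to 131.0 and 14.7 to 35.1 CPM, with 7 of the 7 tested lower in ATG7. Lymphocyte markers were low and did not overlap, at 1.37 to 3.40 and 4.34 to 10.8 CPM, with 4 of 5 tested higher in ATG7. The other 8 lists overlapped in their sums; among them, endothelial markers were higher in ATG7 for 5 of 5 (282.8 to 462.1 against 354.7 to 720.3 CPM) and erythroid markers lower for 3 of 3 (mean sum 3.38 against 2.73 CPM). No marker in any list passed the test and none was at 0 in every library. In bulk RNA, fewer cells of a type and less RNA per cell cannot be told apart. EYFP 3 went against the label male: it had 938.0 CPM of Xist, the transcript of the inactive X chromosome, where the other 6 libraries had 0.150 to 0.573 CPM. Values without EYFP 3 are therefore given below.

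Below, a mean ± SD covers n = 4 libraries in EYFP and n = 3 in ATG7, and a pair of means names EYFP first. All 5 genes were lower in ATG7, and in each of them every ATG7 library lay below every EYFP library. Among the 19199 genes tested, 4.91% had that arrangement. In the fit across all genes (quasi-likelihood test of edgeR, p adjusted by Benjamini and Hochberg, threshold 0.05), 0.0677% of the genes were called lower in ATG7 and 0.688% higher, and 6.33% had every ATG7 library above every EYFP library. The 5 genes were picked for this contrast, so that their place among the 13 genes called lower follows from the choice and is not used as a test.

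Among the PAR bZIP genes, Dbp, a gene with a wide daily swing in many tissues, had 48.5, 82.6, 59.7 and 77.5 CPM in EYFP 1 to 4 and 22.8, 22.4 and 16.1 CPM in ATG7 1 to 3. EYFP 1 was the lowest control and still 2.13 times the highest ATG7 library. The mean was 67.1 ± 15.8 CPM in EYFP and 20.4 ± 3.77 CPM in ATG7, 69.6% lower, with a log2 fold change of -1.72 (SE 0.205). The counts behind these values ranged from 747 in ATG7 3 to 3791 in EYFP 2.

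Hlf, whose product is also known from a fusion protein in leukaemia, had 50.1, 49.0, 53.4 and 48.5 CPM in EYFP 1 to 4 and 31.3, 30.1 and 27.9 CPM in ATG7 1 to 3. Both groups were tight, with a coefficient of variation of 4.42% in EYFP and 5.70% in ATG7. The ATG7 mean was 40.8% lower, with a log2 fold change of -0.76 (SE 0.0730). Tef, the third PAR bZIP gene, had 246.1, 234.3, 250.4 and 262.5 CPM in EYFP 1 to 4 and 185.3, 177.1 and 147.2 CPM in ATG7 1 to 3. It showed the smallest difference of the 5, with the ATG7 mean 31.6% lower and a log2 fold change of -0.55 (SE 0.0913). Its lowest EYFP library was 1.26 times its highest ATG7 library.

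Of the REV-ERB genes, Nr1d1 had 19.1, 36.7, 24.9 and 30.9 CPM in EYFP 1 to 4 and 9.39, 8.39 and 6.60 CPM in ATG7 1 to 3. The controls varied among themselves with a coefficient of variation of 27.2%, against 23.6% for Dbp, in the same order (EYFP 2 highest, then 4, 3 and 1), and all lay above the ATG7 libraries. The mean was 27.9 ± 7.58 CPM in EYFP and 8.12 ± 1.41 CPM in ATG7, 70.8% lower, with a log2 fold change of -1.78 (SE 0.219). Nr1d2, which can stand in for Nr1d1 in repressing clock genes, had 172.2, 195.7, 185.1 and 196.5 CPM in EYFP 1 to 4 and 124.7, 104.1 and 79.2 CPM in ATG7 1 to 3. Its ATG7 mean was 45.2% lower, with a log2 fold change of -0.87 (SE 0.131).

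**Figure D1:**
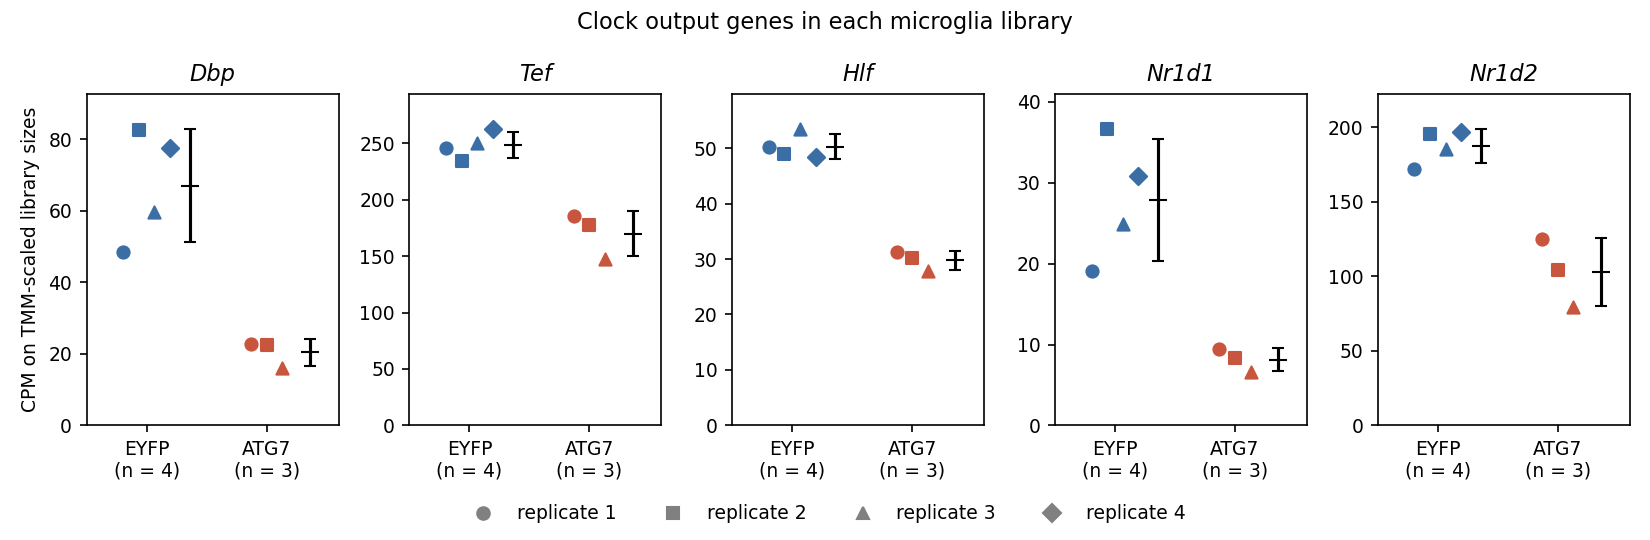
CPM on TMM-scaled library sizes (y axis, from 0) of the 5 genes in 4 EYFP and 3 ATG7 libraries; symbols give the replicate number, and bars the mean and SD. In each panel all ATG7 points lie below all EYFP points, and Dbp and Nr1d1 are spread more widely among the EYFP libraries than Tef, Hlf and Nr1d2.

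Within the ATG7 group the 5 genes ranked the libraries alike: ATG7 1 was the highest and ATG7 3 the lowest for each. Relative to the EYFP mean, ATG7 3 held 23.9% of Dbp, 23.7% of Nr1d1, 42.2% of Nr1d2, 55.5% of Hlf and 59.3% of Tef, while ATG7 1 held 33.95%, 33.7%, 66.5%, 62.2% and 74.6%. Within EYFP they split. Dbp and Nr1d1 ran from 72.3% and 68.5% of their mean in EYFP 1 to 123.2% and 131.5% in EYFP 2, whereas Hlf stayed between 96.5% and 106.3%, with EYFP 3 highest.

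**Figure D2:**
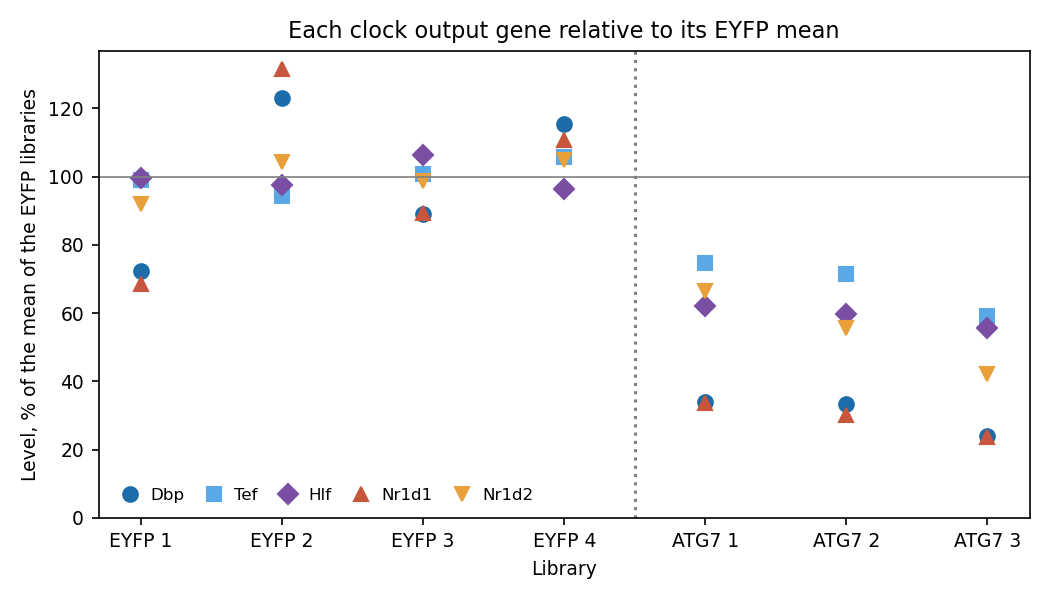
Level of each gene in each library as a percentage of its mean over the EYFP libraries (y axis, from 0; the line marks 100). Dbp and Nr1d1 lie close together in all 7 libraries and are the lowest pair in ATG7, while Tef is the highest of the 5 in each ATG7 library.

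With log2 CPM centred within each group, so that the difference between the groups is removed, Dbp and Nr1d1 had a Pearson r of 0.98 over the 7 libraries. The other pairs ranged from 0.07 (Hlf and Nr1d1) to 0.85 (Tef and Nr1d2). These are descriptions over 7 libraries, with no test. The labels do not say which libraries were prepared together.

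Per kilobase of annotated exon, the 5 genes could be ranked against each other. In EYFP the mean level was 34.6 ± 2.10 CPM per kilobase for Nr1d2, 31.6 ± 1.48 for Tef, 22.4 ± 5.28 for Dbp, 9.06 ± 2.46 for Nr1d1 and 7.52 ± 0.333 for Hlf (SD, n = 4 each). Nr1d2 and Tef overlapped between libraries, as did Nr1d1 and Hlf, and Dbp lay apart from its neighbours. In ATG7 the levels were 21.6 ± 2.55 for Tef, 19.0 ± 4.21 for Nr1d2, 6.82 ± 1.26 for Dbp, 4.45 ± 0.254 for Hlf and 2.64 ± 0.459 for Nr1d1 (SD, n = 3 each). There Hlf was above Nr1d1 in every library, at 4.18 to 4.68 against 2.14 to 3.05 CPM per kilobase. Exon lengths are those of GENCODE M21 and not of the isoforms in these cells.

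The choroid plexus sum ranked the EYFP libraries in the order EYFP 2, 4, 3 and 1 (71887, 65453, 56120 and 54502 CPM), which is also the order of Dbp and Nr1d1 there. Its ranges overlapped between the groups. With the log2 of this sum as a covariate, an alternative chosen after seeing the data, the log2 fold changes were -1.50 for Dbp, -1.48 for Nr1d1, -0.78 for Nr1d2, -0.78 for Hlf and -0.55 for Tef. Without EYFP 3 they were -1.78, -1.84, -0.88, -0.73 and -0.55 in the same order. The part of the cells behind the choroid plexus, lymphocyte, neuron and endothelial markers in the difference was not tested beyond this covariate.

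Each of 3 members overlaps a gene on the other strand, and no source used here states whether counting used strand. The Dbp gene (ENSMUSG00000059824, chromosome 7, 45705088 to 45710203 on GRCm38) shares 18.0% of its exon bases with Sphk2, a sphingosine kinase gene, which was at 53.6 ± 2.74 CPM in EYFP and 57.1 ± 0.798 CPM in ATG7. Nr1d1 (ENSMUSG00000020889, chromosome 11, 98767932 to 98775333) shares 8.55% with Thra, the thyroid hormone receptor alpha gene, at 49.97 ± 3.47 CPM and 45.3 ± 4.16 CPM. Tef (ENSMUSG00000022389, chromosome 15, 81802421 to 81826863) shares 2.45% with the antisense RNA Gm17597, which was at most 0.610 CPM in any library. None of these 3 overlapping genes passed the test, with edgeR adjusted p of 0.648 for Sphk2, 0.561 for Thra and 0.333 for Gm17597. Hlf (ENSMUSG00000003949, chromosome 11, 90336536 to 90390895) and Nr1d2 (ENSMUSG00000021775, chromosome 14, 18204054 to 18239127) overlap no other annotated gene.

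The rest of the clock network was read from the same fit, in 7 lists of 63 genes. These were chosen with earlier results of these data known, so the count that passed is a description. Besides clock genes, the lists hold genes repressed by REV-ERB and genes induced by glucocorticoids. Of the 61 tested, 5 passed: Arntl, Cdkn1a, C3 and C4b were higher in ATG7 and Tspan4 was lower. C3 and C4b stand in the REV-ERB-repressed list and Cdkn1a in the glucocorticoid list. The median log2 fold change was 0.02 over these 61 genes and -0.0037 over all 19199, of which 0.755% passed. With DESeq2 13 of the 61 passed, 8 higher and 5 lower. With 1 library left out, the count was 2 without EYFP 4, 3 without ATG7 2 or ATG7 3, 4 without ATG7 1, 5 without EYFP 2, 6 without EYFP 3 and 7 without EYFP 1. It was 7 without the filter, 2 with the choroid plexus covariate and 0 with the replicate number as a block.

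Among the activators, Arntl, the partner of CLOCK and a direct target of REV-ERB repression, rose. It had 7.94, 6.60, 6.56 and 7.09 CPM in EYFP 1 to 4 and 13.2, 14.1 and 22.6 CPM in ATG7 1 to 3. The log2 fold change was 1.24 (SE 0.177, edgeR adjusted p = 0.0122). ATG7 3, the library with the least of all 5 output genes, had the most Arntl, and the groups did not overlap; 11.2% of all genes tested did not overlap. Without EYFP 4 its adjusted p was 0.0545 in the same test, and with the choroid plexus covariate 0.0972; over all 17 alternatives it ranged from 4.19e-08 to 0.223. The other activators did not pass. Clock was at 91.4 ± 2.47 CPM and 98.7 ± 6.22 CPM, and Npas2, which can replace Clock, was at 3.47 ± 0.680 CPM and 4.75 ± 1.82 CPM. Rora, a receptor that activates where REV-ERB represses, had a log2 fold change of -0.20 (SE 0.107, edgeR adjusted p = 0.4999).

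**Figure D3:**
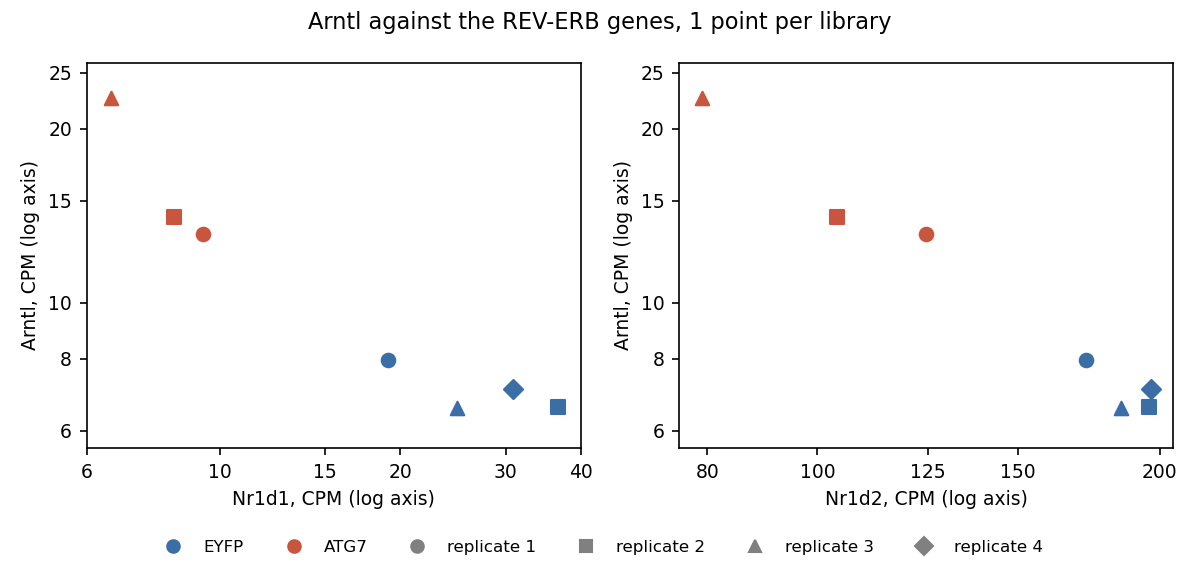
CPM of Arntl (y axis, log scale) against CPM of Nr1d1 (left) and Nr1d2 (right; x axes, log scale), 1 point per library. The 3 ATG7 libraries lie at high Arntl and low REV-ERB transcript, with ATG7 3 at the end of both axes.

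Of the 10 repressors, 0 passed with edgeR or with limma-voom, 7 had an unadjusted p under 0.05, and 4 passed with DESeq2 (Per1, Per2 and Ciart lower, Nfil3 higher). Over all 19199 genes tested, 2300 had an unadjusted p under 0.05 and DESeq2 called 585. Ciart, which encodes a repressor of the BMAL1 and CLOCK pair, came nearest. It had 3.90, 9.41, 5.14 and 6.38 CPM in EYFP 1 to 4 and 2.90, 2.18 and 1.91 CPM in ATG7 1 to 3, a log2 fold change of -1.42 (SE 0.287, edgeR adjusted p = 0.0523). The edgeR adjusted p was 0.0111 without EYFP 1 and 0.0206 without the filter on low counts, and over its 17 alternatives it ranged from 8.05e-05 (DESeq2) to 0.371. Its EYFP libraries stood in the order EYFP 2, 4, 3 and 1, as Dbp's did. Nfil3, the D-box repressor, was at 7.60 ± 1.26 CPM and 12.4 ± 1.58 CPM, with a log2 fold change of 0.70 (SE 0.147, edgeR adjusted p = 0.0618). Its groups did not overlap. The edgeR adjusted p was 0.0294 without EYFP 3 and 0.00667 without the filter, and over its 17 alternatives it ranged from 0.00115 (DESeq2) to 0.308.

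The Period genes, which close the negative arm of the loop, had log2 fold changes of -0.74 for Per1 (SE 0.214), -0.60 for Per2 (SE 0.166) and -0.51 for Per3 (SE 0.194), with edgeR adjusted p of 0.217, 0.179 and 0.348. Per1 and Per2 did not overlap between the groups, and Per3 did. Without EYFP 3 the log2 fold changes were -0.57 for Per1, -0.62 for Per2 and -0.51 for Per3. Leaving out each library in turn gave -0.87 to -0.57 for Per1, -0.79 to -0.41 for Per2 and -0.64 to -0.30 for Per3. Of the Cryptochromes, Cry2 had a log2 fold change of -0.30 (SE 0.0901, edgeR adjusted p = 0.201) and Cry1 one of 0.18 (SE 0.0996, edgeR adjusted p = 0.521). Bhlhe40 and Bhlhe41, which compete for the E-box, had log2 fold changes of -0.11 (SE 0.121) and 0.25 (SE 0.0973), and the sign of Bhlhe40 turned to 0.06 with the choroid plexus covariate.

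Of 12 other output genes 10 were tested, and Avp and Prok2 had too few counts. Among the 10 tested, 7 had an unadjusted p under 0.05, against 2300 of all 19199 genes. DESeq2 called 2 of the 10, both lower, and 585 of all genes tested. Every ATG7 library lay below every EYFP library in 4 of the 10 and above in 1. The shares over all genes tested were 4.91% and 6.33%. Tspan4, a tetraspanin gene, fell from 105.2 ± 8.23 CPM to 76.4 ± 3.56 CPM, by 0.46 on the log2 scale (SE 0.0777, edgeR adjusted p = 0.0227). It did not pass without EYFP 4, ATG7 1, ATG7 2 or ATG7 3 in turn (adjusted p from 0.0676 to 0.134), nor with scaling to the microglia markers (0.118). Of the 9 kinase and ubiquitin ligase genes that set the stability of Period and Cryptochrome proteins, 0 passed with edgeR, DESeq2 or limma-voom and 0 had an unadjusted p under 0.05. Gsk3b had the smallest p, with a log2 fold change of -0.13 (edgeR adjusted p = 0.432). Of the 6 corepressor genes through which REV-ERB acts, 0 passed with those 3 tools and 1 had an unadjusted p under 0.05: Hdac3, with a log2 fold change of -0.21 (edgeR adjusted p = 0.208).

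Of 10 genes known in other settings as repressed by REV-ERB, 2 were called higher and 9 had a log2 fold change above 0, with a median of 0.21. Over all genes tested, 0.688% were called higher and the median was -0.0037. This list too was chosen with earlier results of these data known, so its counts are a description. The complement genes C3 and C4b passed. C3 had 20.7, 16.5, 11.5 and 17.7 CPM in EYFP 1 to 4 and 54.1, 65.8 and 66.6 CPM in ATG7 1 to 3, and its log2 fold change was 1.91 (SE 0.168, edgeR adjusted p = 0.00251). C4b had a log2 fold change of 1.59 (SE 0.157, edgeR adjusted p = 0.00432); it has a near-identical neighbour, C4a, and how reads shared by the pair were counted is not given in the sources used here. With the choroid plexus covariate their adjusted p was 0.0801 and 0.116. The chemokine Ccl2 (0.82, SE 0.186, edgeR adjusted p = 0.0976) and the cytokine Il1b (0.62, SE 0.171, edgeR adjusted p = 0.159) did not pass with edgeR. DESeq2 called both, among 4 genes of this list and 585 of all genes tested. In both, every ATG7 library lay above every EYFP library, as in 6.33% of all genes tested. Ccl2, Il1b, Cx3cr1 and, in the next list, Fkbp5 were singled out after their values were seen. The fractalkine receptor Cx3cr1 was at 3376 ± 307 CPM and 3779 ± 497 CPM.

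Of 9 genes that glucocorticoids, hormones with a daily rhythm of their own, are known to induce, 1 passed, the cell cycle inhibitor Cdkn1a, which rose from between 24.7 and 35.7 CPM in the EYFP libraries to between 47.4 and 51.0 CPM in the ATG7 libraries. Its log2 fold change was 0.80 (SE 0.115, edgeR adjusted p = 0.0133), and its adjusted p was 0.0583, 0.0714 and 0.0832 without EYFP 4, ATG7 2 and ATG7 3. Fkbp5, the classical target, ranged from 69.5 to 182.7 CPM in EYFP, highest in EYFP 3, and from 69.5 to 86.5 CPM in ATG7. EYFP 3 was also the highest of all libraries for Tsc22d3, Sgk1, Zbtb16 and Ddit4, but not for Pdk4, Nfkbia, Dusp1 or Cdkn1a. The median log2 fold change of the list was -0.19, with 6 genes below 0 and 3 above, Cdkn1a among the latter.

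**Figure D4:**
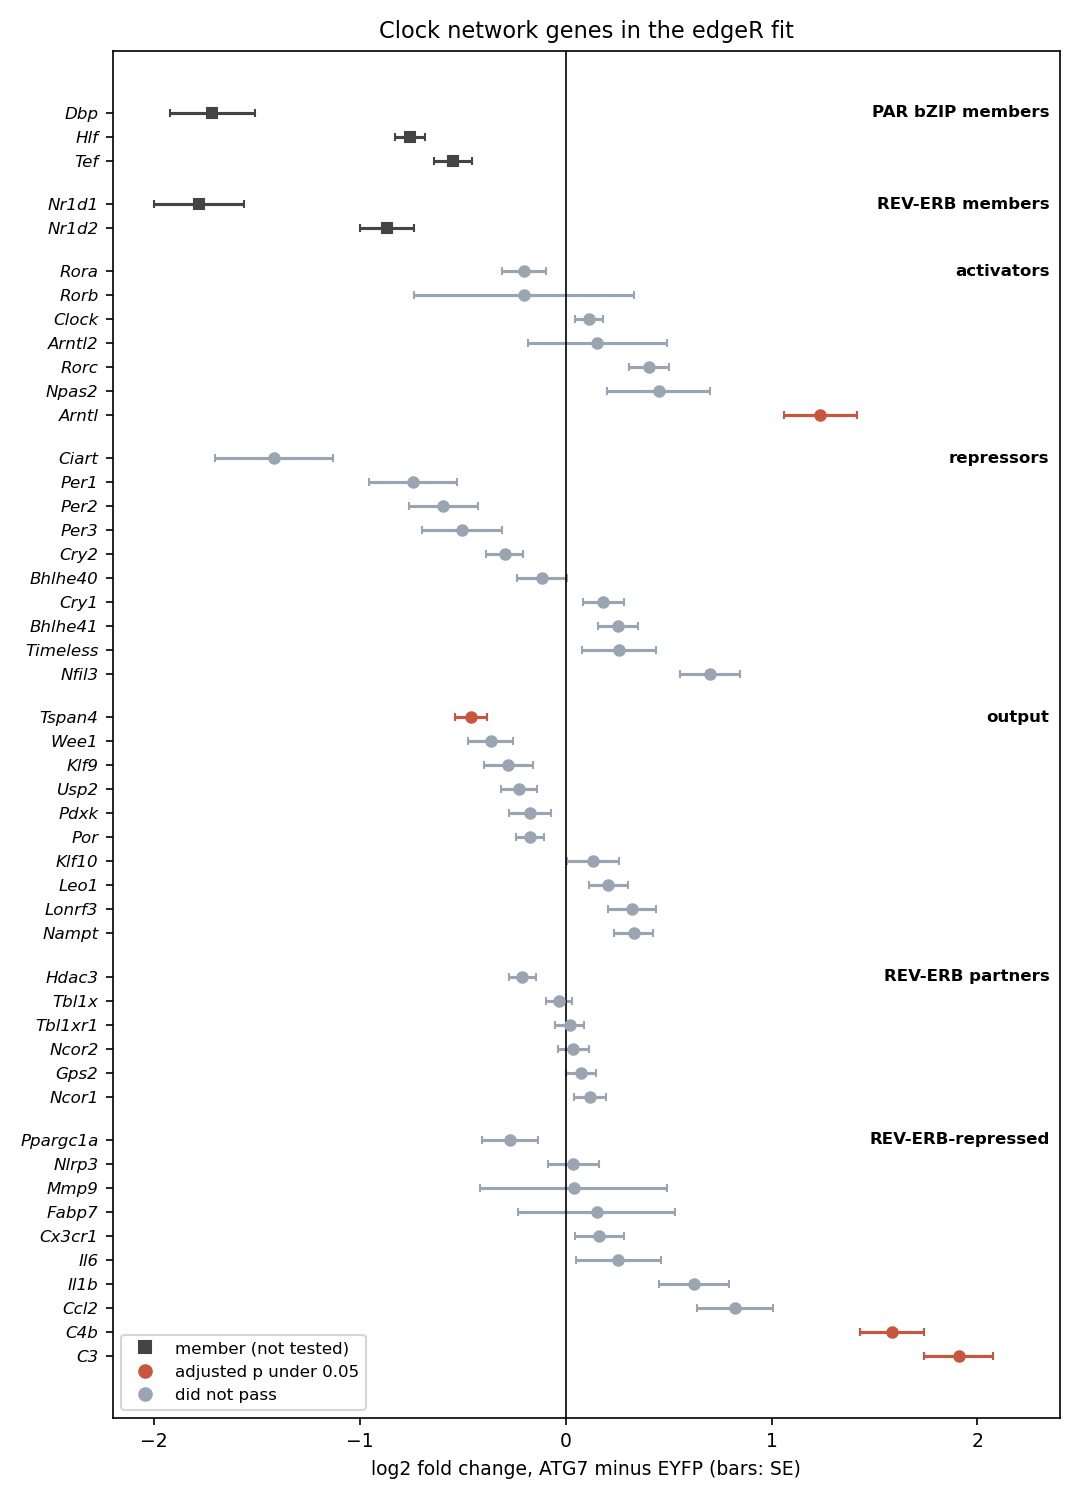
Log2 fold change, ATG7 minus EYFP, with SE (x axis) for the 5 genes (squares, not tested) and for tested genes of 5 of the 7 lists (circles, coloured where the edgeR adjusted p was under 0.05). Arntl, C3 and C4b are the coloured points on the right and Tspan4 on the left, and Ciart is the repressor at -1.42, not coloured.

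The genes most like the 5 were sought with a score, the mean of their log2 CPM scaled over the libraries, among 15044 other genes with a mean of at least 1 CPM. Over the 7 libraries the highest Pearson r was that of Mipol1 (0.98), followed by 1700086O06Rik (0.98), Tyw3 (0.97), the fatty acid desaturase gene Fads2 (0.96) and Erich2 (0.96). None of these 5 passed the test, with edgeR adjusted p from 0.0825 for Fads2 to 0.545 for Tyw3. The lowest r values were those of Calhm6 (-0.99), Arntl (-0.99), Cd274 (-0.98), which encodes the checkpoint ligand PD-L1, the cathepsin gene Ctsh (-0.98) and the class II gene H2-Oa (-0.98). Of these, Calhm6, Arntl and Cd274 passed the test (edgeR adjusted p of 0.0272, 0.0122 and 0.00581). Ctsh (0.110) and H2-Oa (0.0847) did not. Arntl was thus the second lowest of 15044 genes in r. A gene that differs between the groups reaches a high r here by that alone.

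With values centred within the groups, high r values belonged to 1700086O06Rik (0.98), Prrg4 (0.98), Tmem160 (0.97) and Dhx36 (0.96), and the lowest to Taf1b (-0.99), Gtf2f1 (-0.98), Zdhhc3 (-0.98), Tor1aip1 (-0.98) and Tshz2 (-0.98). None of these 9 passed the test, with edgeR adjusted p from 0.0735 for Tmem160 to 0.907 for Taf1b. Among the ranked genes of the clock lists, centred r ran from -0.96 (Arntl, followed by Klf10 at -0.96 and Tbl1x at -0.84) to 0.95 (Cry2, followed by Per2 at 0.83 and Pdk4 at 0.77). Klf10, Tbl1x and Pdk4 were named after their values were seen. With 7 libraries and 15044 genes, values of this size are a ranking and not a test.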

How the data were processed

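RNA of CD11b-enriched cells from the dorsal hippocampus was sequenced in 4 EYFP and 3 ATG7 libraries. The deposited values are raw counts per gene that the authors made with fastp 0.20.1, HISAT2 2.0.5 and featureCounts on mm10 (GRCm38), per the submitters' processing notes, which give no role or order for these tools. Strand setting, treatment of shared reads and annotation release are not given in the sources used here. Groups come from the sample titles.

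The counts were filtered with filterByExpr (minimum count 10), scaled with TMM and tested with edgeR 4.0.16 (R 4.3.3, quasi-likelihood, 1 fit over 19199 genes, Benjamini-Hochberg threshold 0.05), after the code was tested on simulated data. SE was taken from the F statistic, as the absolute log2 fold change over the root of F. CPM used TMM-scaled library sizes, and log2 CPM a prior count of 2. Totals were 35934210 to 55217119 counts, and 37 mitochondrial genes had 0 counts in every library. Positions come from GENCODE M21, which matched 55141 of 55401 identifiers, and promoters from RefSeq.

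The 5 genes and all lists were chosen with earlier results of these data known. Named genes are the 5, listed clock genes, genes that passed and the 5 most and least alike, of which 1 is not reported here. Alternatives were other scalings, filters, DESeq2 1.42.0, limma 3.58.1 voom, a replicate block, each library left out, and a choroid plexus covariate added after seeing the data.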

Additional observations from a re-analysis of the deposited data

Results flagged for a closer look

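Within the 4 EYFP libraries, 1 library stood apart from the other 3 by more than Dixon's 95% limit for 2 of the 71 genes compared, where chance alone gives about 1 in 20, or 3.55. Arntl2, a relative of Arntl, had 1.06 CPM in EYFP 1 and 0.532 to 0.589 CPM in the other EYFP libraries. Gsk3b, a kinase gene, had 128.3 CPM in EYFP 3 and 126.3 to 126.6 CPM in the others. None of the 5 clock output genes was set apart in this way.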

How the results depend on the processing

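The log2 fold changes of the 5 clock output genes kept their sign in all 85 recomputed values. Each moved by less than the pooled within-group SD of that gene's log2 CPM, 0.0715 for Hlf to 0.354 for Nr1d1. That SD is a spread between libraries and not the SE of the fold change. Some moves exceeded the SE: with the choroid plexus covariate Nr1d1 went from -1.78 (SE 0.219) to -1.48. Dbp went from -1.72 (SE 0.205) to -1.50 with it. Leaving out each library gave -1.84 to -1.58 for Dbp, -0.61 to -0.46 for Tef, -0.79 to -0.72 for Hlf, -1.92 to -1.63 for Nr1d1 and -1.03 to -0.72 for Nr1d2. The count of all genes called was 145, and it was 58 with scaling to microglia markers, 297 without a filter (78.8% higher), 585 with DESeq2 (69.6% higher), 37 with the choroid plexus covariate, and 28 to 277 with each library left out (277 without EYFP 1, 94 without EYFP 2, 30 without EYFP 4, 28 without ATG7 2, 30 without ATG7 3). The count over the 7 clock network lists was 5, and it was 13 with DESeq2, 2 with the covariate and 2 to 7 with each library left out. The cause was not tested. Of the values for single genes, 346 stayed on their side of the threshold, 17 no longer passed, 8 newly passed and 1 changed sign (Bhlhe40, 0.0648 with the covariate).

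The deviations of same-numbered libraries from their group means had r of -0.114, -0.316 and 0.124. Between differently numbered libraries r ran from -0.207 to 0.319. With so few libraries, these values cannot decide whether the numbers pair them. With the number as a replicate block, edgeR called 0 genes (1256 at an unadjusted p under 0.05) and 0 clock network genes (21 at an unadjusted p under 0.05), against 145 and 5 with edgeR without the block.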
